A study of Mus musculus with 2 samples.

Results

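The 4 adult haemoglobin genes Hba-a1, Hba-a2, Hbb-bs and Hbb-bt, together with Alas2, were followed through the cell classes of mouse aorta in single-cell RNA sequencing data. The 5 genes were chosen by symbol out of 32285 measured features, with earlier results from the same libraries known, so their levels are a description. They were read in 10201 wall cells of 17728 barcodes in the library of endothelial Cept1 overexpression and in 7993 of 14349 in the control library. Wall cells were sorted into classes by the unique molecular identifiers (UMIs, counts of captured transcripts) of marker genes, none of which is a haemoglobin gene. They were set against 1331 and 927 erythroid barcodes, which were selected on haemoglobin itself as those with at least 20% of their UMIs from the 4 genes.

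Haemoglobin is a tetramer of alpha and beta globin chains, each holding a haem group that binds oxygen. Hba-a1 and Hba-a2 encode the alpha chain and Hbb-bs and Hbb-bt the beta chain, while Alas2 encodes the erythroid form of the enzyme that starts haem synthesis. Developing red cells make both chains in balance, and mature circulating red cells still carry part of that RNA. Alpha globin without beta globin has also been described in the endothelium of small arteries, where it binds nitric oxide and is reduced by the enzyme encoded by Cyb5r3.

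Both groups were male mice of the C57BL6 background with the genotype Cept1 fl/fl, and both received tamoxifen as 5 daily injections of 1 mg. What set the groups apart was VE-cadherin-Cre-ERT2, a recombinase that tamoxifen activates and that an endothelial promoter drives. Mice with it gave the Cept1 library and Cre-negative mice the control library. The labels give an age of 6 to 8 weeks, while the protocol starts tamoxifen at 8 weeks or later with 5 days of recovery. Aorta from arch to bifurcation was taken from 3 mice per condition, digested, and treated with a buffer that lyses red cells before sorting and capture. Each group was 1 library, so no difference was tested, the mice cannot be told apart, and every interval covers counting error only. Cept1 itself was higher in endothelium of the Cept1 library, at 116.3 against 77.1 CPM (the gene's UMIs scaled to 1000000 UMIs of the class; log2 ratio 0.59, interval 0.45 to 0.74).

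The promoters of the globin genes are shown because 2 results below part the members of a pair. All 5 genes matched a RefSeq start on GRCm38.p6, and the 150 bases before that start are printed 5′ to 3′ for the 4 globin genes, with capitals marking motif matches on either strand. Of 5 motifs searched, 3 are marked. The first was TATAA, the letters of the box that places the start of many genes. The second was CCAAT, an element found in front of many genes, and the third was CCACCC, which erythroid factors of the Klf family bind.
Hba-a1 (chr11:32283522-32283671, plus strand): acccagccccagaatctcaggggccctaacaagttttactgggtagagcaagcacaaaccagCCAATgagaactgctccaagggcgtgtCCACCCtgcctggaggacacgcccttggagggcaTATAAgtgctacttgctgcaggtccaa
Hba-a2 (chr11:32296342-32296491, plus strand): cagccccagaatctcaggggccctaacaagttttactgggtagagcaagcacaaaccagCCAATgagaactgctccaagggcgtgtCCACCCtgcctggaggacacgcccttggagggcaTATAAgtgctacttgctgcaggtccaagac
Hbb-bs (chr7:103827929-103828078, minus strand): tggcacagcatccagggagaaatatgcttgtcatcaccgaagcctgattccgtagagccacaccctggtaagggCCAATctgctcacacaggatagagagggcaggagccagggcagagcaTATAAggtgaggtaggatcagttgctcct
Hbb-bt (chr7:103813924-103814073, minus strand): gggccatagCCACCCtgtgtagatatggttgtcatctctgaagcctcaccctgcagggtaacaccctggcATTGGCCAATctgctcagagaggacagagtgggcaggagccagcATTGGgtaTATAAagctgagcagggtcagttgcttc
The alpha globin windows were 96.1% identical over 153 aligned columns, and the beta globin windows 73.7% identical over 156. Each of the 4 windows held TATAA, starting 27 to 30 bases before the start, and CCAAT. The exact CCACCC letters were found in the windows of Hba-a1, Hba-a2 and Hbb-bt, starting 61, 64 and 141 bases before the start. They were not found in that of Hbb-bs. Other forms of this element were not searched, so this does not say that Hbb-bs lacks it. Across 32851 RefSeq promoters of the same length, 14.2% held TATAA, 24.5% CCAAT and 19.7% CCACCC. Some gene models in GENCODE start further upstream than those of RefSeq, so the windows are relative to the RefSeq starts. The other 2 motifs, GATAAG, which GATA factors bind, and the CATAA letters, had no match in any of the 5 windows, against 3.75% and 15.5% of all promoters, which says only that these letters are not in these windows. The Alas2 window matched CCACCC on the reverse strand and none of the other motifs.

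Hba-a1 (ENSMUSG00000069919, chromosome 11, 32283511 to 32284465) and Hba-a2 (ENSMUSG00000069917, chromosome 11, 32296489 to 32297298) lie side by side on the plus strand of GRCm38. Hbb-bs (ENSMUSG00000052305, chromosome 7, 103826534 to 103828096) and Hbb-bt (ENSMUSG00000073940, chromosome 7, 103812524 to 103813996) lie on the minus strand, and Alas2 (ENSMUSG00000025270, 150547375 to 150570638) on the plus strand of chromosome X. The last 200 bases of the longest coding transcript, where a 3′ library reads, were 84.7% identical between Hba-a1 and Hba-a2 and 79.4% between Hbb-bs and Hbb-bt. The sources used here do not give how reads matching both copies were counted, so splits within a pair are uncertain to that extent.

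Cells were assigned by marker genes, so their detection describes the gate. Cytl1 had a UMI in 98.9% and 96.7% of arterial endothelial cells (Cept1 and control library, an order kept below), Gpihbp1 in 98.4% and 96.6% of capillary cells and Mmrn1 in 99.5% and 99.1% of lymphatic cells. The cells gated as venous-like had Vwf in 96.3% and 95.7%, but the venous marker Ackr1 in only 21.3% and 10.0% and the lymphatic factor Prox1 in 51.3% and 52.9%, so that name rests on the gate. The libraries held 95735360 and 88220524 UMIs and shared 74 cell barcodes, of which 44 and 42 were wall cells.

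Most haemoglobin transcripts sat in the erythroid barcodes. The libraries held 618256 and 507189 UMIs of Hba-a1, 459600 and 399164 of Hba-a2, 1203997 and 959280 of Hbb-bs, 189394 and 161219 of Hbb-bt, and 3957 and 4276 of Alas2. Haemoglobin made up 2.58% and 2.30% of all UMIs, and 91.7% and 89.2% of it was in erythroid barcodes, against 5.46% and 6.38% in gated wall cells. Each of the 5 genes had between 88.9% and 92.9% of its UMIs in erythroid barcodes. The rule's edge was continuous, with 50 and 55 barcodes at 15 to 20% haemoglobin and 40 and 39 at 20 to 25%. The lowest share inside was 20.008% and 20.089%, and the highest outside was 19.963% and 19.955%. Of the erythroid barcodes, 91 and 62 passed the filter for cells, and 82 and 56 passed a wall gate as well; they were kept out of the wall classes.

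In erythroid barcodes alpha and beta globin stood in the ratio that was the reference for the wall classes. The summed alpha to beta ratio was 0.775 (0.772 to 0.777) and 0.810 (0.808 to 0.813). Hba-a1 exceeded Hba-a2 by a ratio of 1.34 and 1.27, and Hbb-bs exceeded Hbb-bt by 6.25 and 5.83. Alas2 had 1.59 and 2.10 UMIs per 1000 haemoglobin UMIs. Single barcodes had a median alpha to beta ratio of 0.785 and 0.813, with 90% of them between 0.572 and 1.30 and between 0.601 and 1.49.

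A typical endothelial cell held 1 haemoglobin UMI, the same as a typical lymphocyte. Over 13 classes (the 4 endothelial subtypes, smooth muscle, fibroblasts, macrophages, monocytes or dendritic cells, neutrophils, T or NK cells, B cells, Schwann or neural cells and mast cells), the median was 1 UMI per cell in both libraries, except in venous-like cells (0.5) and mast cells (0) of the control library. At least 1 haemoglobin UMI was found in 66.5% (64.0 to 69.0%) and 54.4% (50.5 to 58.3%) of endothelial cells, with median depths of 6764 and 8268 UMIs. T or NK cells, which are not known to make haemoglobin, reached 70.0% (64.4 to 75.2%) and 52.9% (49.1 to 56.6%) at median depths of 6527 and 7312.5 UMIs. The endothelial share thus lay within the interval of the T or NK share in both libraries, so it is not read as expression. Arterial cells had 66.6% and 55.0%, capillary cells 64.0% and 55.2%, venous-like cells 57.5% and 50%, and lymphatic cells 72.6% and 55.5%.

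Thinned to 2000 UMIs per cell, arterial cells had a haemoglobin UMI in 28.2% (25.008 to 31.6%) and 14.5% (10.2 to 19.7%), against 33.7% (28.3 to 39.4%) and 21.4% (18.4 to 24.6%) of T or NK cells. Thinning left out 37 and 12 arterial and 2 and 11 T or NK cells. Capillary cells reached 38.6% and 26.2%, and neutrophils 48.0% and 28.1%. Before thinning, neutrophils had median depths of 4313 and 6295 UMIs, capillary cells 4584 and 5964, and arterial cells 7413 and 10460. In each library neutrophils had a higher thinned share than all 4 endothelial subtypes.

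**Figure D1:**
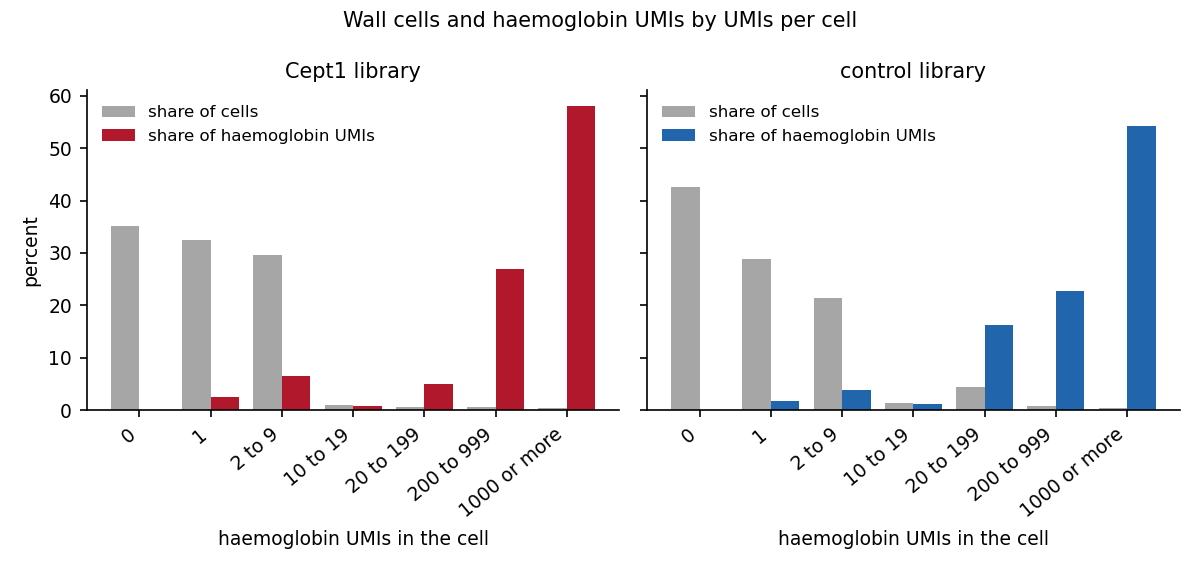
Share of wall cells (grey bars) and share of their haemoglobin UMIs (coloured bars), in percent, by the number of haemoglobin UMIs in the cell, for each library. Cells with 1000 or more UMIs are 0.432% and 0.463% of cells and hold 58.1% and 54.2% of the UMIs.

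The sums over a class were set by few cells. As the plot of cells and UMIs by UMIs per cell shows, 35.1% and 42.5% of wall cells held no haemoglobin UMI and 32.4% and 28.9% held 1. Cells with 20 or more UMIs were 190 (1.86%) and 462 (5.78%) cells and held 90.1% and 93.1% of all haemoglobin UMIs of the wall. In endothelium 17 of 1424 and 15 of 647 cells held 82.9% and 93.5%. In arterial endothelium 12 of 785 cells held 87.1% in the Cept1 library, and 3 of 240 cells held 61.7% in the control library. In lymphatic endothelium of the control library 3 of 110 cells held 97.7%, and a single cell had 4522 of the 4993 UMIs; in the Cept1 library no lymphatic cell passed 16 UMIs. The control library had 392 such fibroblasts (8.96%) against 119 (2.14%) in the Cept1 library, and those 392 were shallow, with a median of 2220 total UMIs against 5482 in its other fibroblasts.

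**Figure D2:**
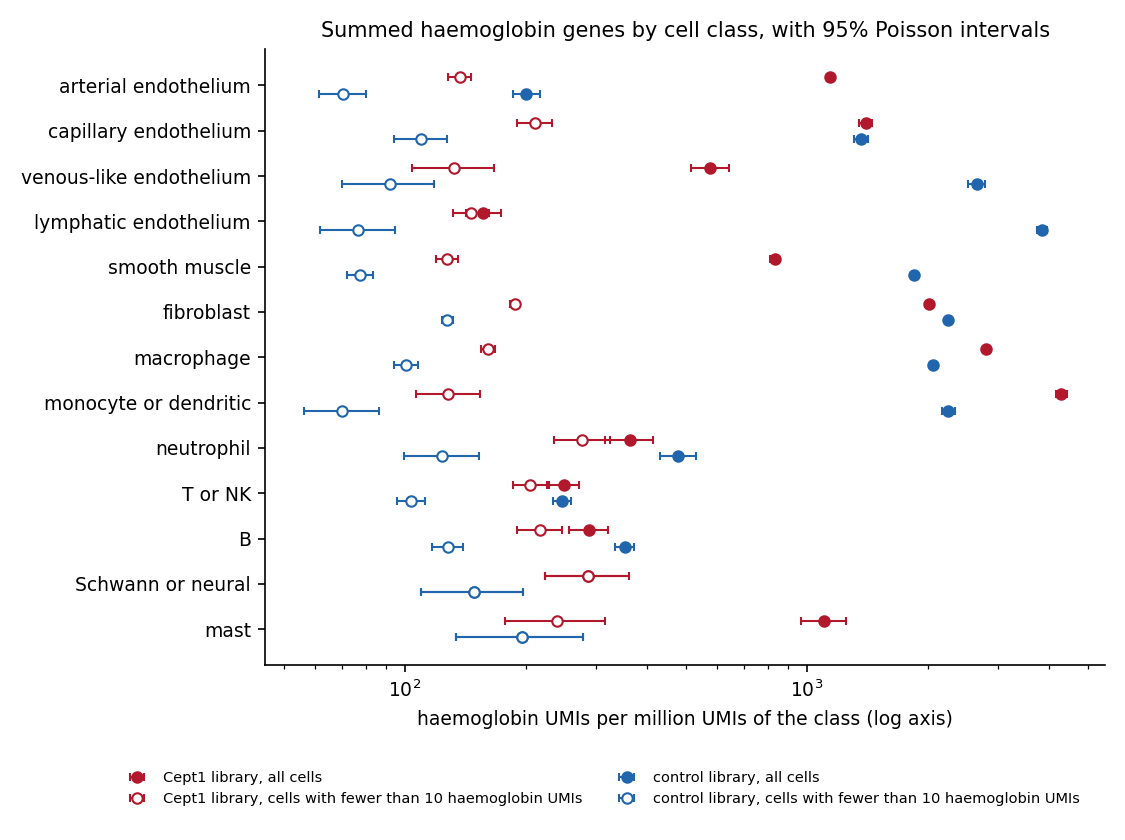
Haemoglobin CPM of the class (log axis) in 13 classes and both libraries, with 95% Poisson intervals; filled points are all cells and open points are cells with fewer than 10 haemoglobin UMIs. Filled points run from 149.0 to 4303, while open points stay between 69.9 and 286.0.

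Levels of the summed class therefore differed widely between classes and did not keep an order across libraries. Endothelium as a whole was at 932.4 and 1361 CPM, smooth muscle at 833.2 and 1846, fibroblasts at 2011 and 2251, and macrophages at 2794 and 2058. Monocytes or dendritic cells were highest among classes of at least 50 cells in the Cept1 library, at 4303 CPM against 2254. T or NK cells were at 249.1 and 246.6, B cells at 287.0 and 352.6 and neutrophils at 363.4 and 479.6 CPM, and Schwann or neural cells at 286.0 and 149.0. Lymphatic endothelium of the Cept1 library (157.1 CPM) and arterial endothelium of the control library (201.0 CPM) were as low as these leukocyte classes, while in the other library they were at 3847 and 1147 CPM. Mast cells were at 1106 and 196.3 CPM over 39 and 33 cells, and the 20 and 11 mesothelial cells at 11509 and 19214. With cells of 10 or more haemoglobin UMIs set aside, a choice made after the distribution was seen, levels in the 13 classes drew together to 127.5 to 286.0 CPM in the Cept1 library and 69.9 to 196.3 in the control library. Arterial endothelium was then at 137.2 and 70.1 CPM, below T or NK cells at 205.7 and 104.0 and below macrophages at 161.1 and 100.8. This second set of values is limited by the 9 UMIs it allows a cell.

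Per gene, arterial endothelial cells of the Cept1 library held 296.3 CPM of Hba-a1, 214.5 of Hba-a2, 552.2 of Hbb-bs and 83.7 of Hbb-bt, against 58.1, 35.0, 98.8 and 9.06 in the control library. All 4 genes were higher in the Cept1 library there, with log2 ratios of 2.35, 2.62, 2.48 and 3.21 in that order. In capillary cells the 4 genes did not share a direction, with -0.23 (-0.39 to -0.07) for Hba-a1 and 0.78 (0.41 to 1.15) for Hbb-bt, and intervals that held 0 for the other two. In arterial cells with fewer than 10 haemoglobin UMIs the ratios were 0.91, 1.10, 0.97 and 0.86.

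The ratio of the libraries took opposite directions in neighbouring endothelial subtypes. Summed haemoglobin had a log2 ratio of 2.51 (2.40 to 2.63) in arterial cells, 0.04 (-0.04 to 0.12) in capillary cells, -2.20 (-2.38 to -2.03) in venous-like cells and -4.61 (-4.77 to -4.46) in lymphatic cells. The capillary value near 0 was not stable, and was -3.15 (-3.39 to -2.91) under a stricter cell filter. Of the members with at least 50 UMIs, all 4 in arterial cells were at least 2-fold higher, none of 4 in capillary cells passed 2-fold, 3 of 3 in venous-like cells and 4 of 4 in lymphatic cells were at least 2-fold lower. Of all genes with that many UMIs, 1.99% in arterial, 2.02% in capillary, 2.00% in venous-like and 1.89% in lymphatic cells passed 2-fold in either direction. In smooth muscle all 5 members were at least 2-fold lower (background 1.48%), while none of 5 passed 2-fold in fibroblasts (2.68%) or macrophages (2.29%). These comparisons entered the choice of the genes, and the members share their cells, so nothing is read from the counts.

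Among cells with fewer than 10 haemoglobin UMIs the endothelial subtypes had the same direction. The log2 ratio was above 0 in each of the 13 classes, from 0.28 in mast cells to 1.16 in neutrophils with a median of 0.88, and the interval stayed above 0 in 12 of them, mast cells being the exception. It was 0.97 (0.75 to 1.19) in arterial, 0.94 (0.67 to 1.21) in capillary, 0.53 (0.02 to 1.06) in venous-like and 0.93 (0.60 to 1.28) in lymphatic endothelium, 0.98 (0.80 to 1.17) in T or NK cells and 0.56 (0.50 to 0.62) in fibroblasts. The endothelial values lay among those of classes not known to make haemoglobin. Across all cells the same 13 classes split into 5 with an interval above 0 and 6 below, and endothelium as a whole turned from -0.55 (-0.59 to -0.51) to 0.86 (0.72 to 1.00). With the cells called doublets by Scrublet kept in, endothelium was at 0.57 and arterial endothelium at 3.36.

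**Figure D3:**
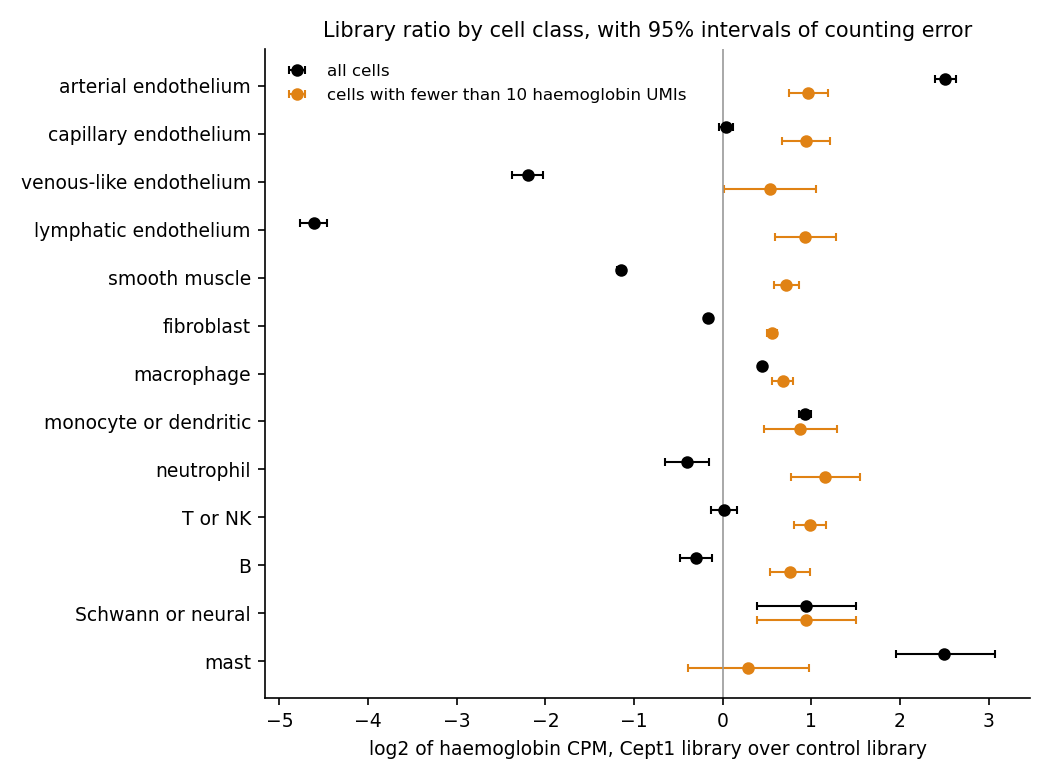
Log2 ratio of haemoglobin CPM, Cept1 library over control library, by class with 95% intervals; black points are all cells and orange points cells with fewer than 10 haemoglobin UMIs. Black points spread from -4.61 to 2.51, and orange points lie between 0.28 and 1.16.

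Endothelium as a whole had alpha and beta globin near the ratio of the erythroid barcodes, while its subtypes and other wall classes lay on both sides of it. Endothelium had an alpha to beta ratio of 0.810 (0.780 to 0.841) and 0.830 (0.797 to 0.864), against 0.775 and 0.810 in erythroid barcodes. The interval lay above the erythroid value in the Cept1 library and held it in the control library. Lymphatic cells were below the erythroid value in both, at 0.596 (0.482 to 0.734) and 0.690 (0.652 to 0.731). Capillary cells were at 0.816 (0.755 to 0.883) and 0.984 (0.904 to 1.07), the latter above it. Arterial endothelium, the subtype for which alpha globin alone has been described in small vessels, was at 0.803 (0.768 to 0.840) and 0.864 (0.737 to 1.01). Its cells with fewer than 10 haemoglobin UMIs were at 0.708 (0.619 to 0.810) and 0.692 (0.523 to 0.913), beside 0.698 and 0.711 in macrophages and 0.694 and 0.778 in T or NK cells. All 4 of these arterial intervals held the erythroid value of their library. Without cells that had a UMI of Alas2 or of a red cell membrane gene, arterial cells were at 0.971 (0.889 to 1.06) in the Cept1 library, above the erythroid value, and at 0.860 (0.734 to 1.01) in the control library. The intervals cover counting error only and leave out the spread between the few cells that hold most UMIs. Among cells with fewer than 10 haemoglobin UMIs, 10 of the 13 classes in each library had an interval that held the erythroid value, none had one above it and 3 had one below. These were fibroblasts (0.617), macrophages (0.698) and lymphatic endothelium (0.592) in the Cept1 library, and smooth muscle (0.660), fibroblasts (0.720) and lymphatic endothelium (0.413) in the control library.

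Across all cells of the 13 classes, 8 (Cept1 library) and 4 (control library) had an interval that held the erythroid value, 3 and 6 had one above it, and 2 and 3 one below. The ratios ran from 0.596 to 1.34 and from 0.50 to 1.52, against 0.58 to 0.859 and 0.413 to 1.29 in cells with fewer than 10 haemoglobin UMIs. Venous-like cells were at 1.34 (1.07 to 1.68) and 1.12 (1.02 to 1.23), and in the control library T or NK cells were at 1.30, B cells at 1.16 and neutrophils at 1.52. In venous-like cells 1 cell held 237 of 330 and 1 cell 1353 of 1726 haemoglobin UMIs. With fewer than 10 haemoglobin UMIs venous-like cells were at 0.659 and 0.706. In the control library T or NK cells were then at 0.778, B cells at 0.718 and neutrophils at 0.978. Among cells with exactly 1 haemoglobin UMI, where each cell weighs the same, the ratio was 0.589 (0.548 to 0.632) and 0.613 (0.563 to 0.667), below the erythroid barcodes of either library. It was 0.757 and 0.774 in cells with 1000 or more UMIs. Within the erythroid set it was 0.776 and 0.934 below 200 UMIs, 0.920 and 0.987 from 200 to below 500, and 0.728 and 0.775 at 4000 or more.

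**Figure D4:**
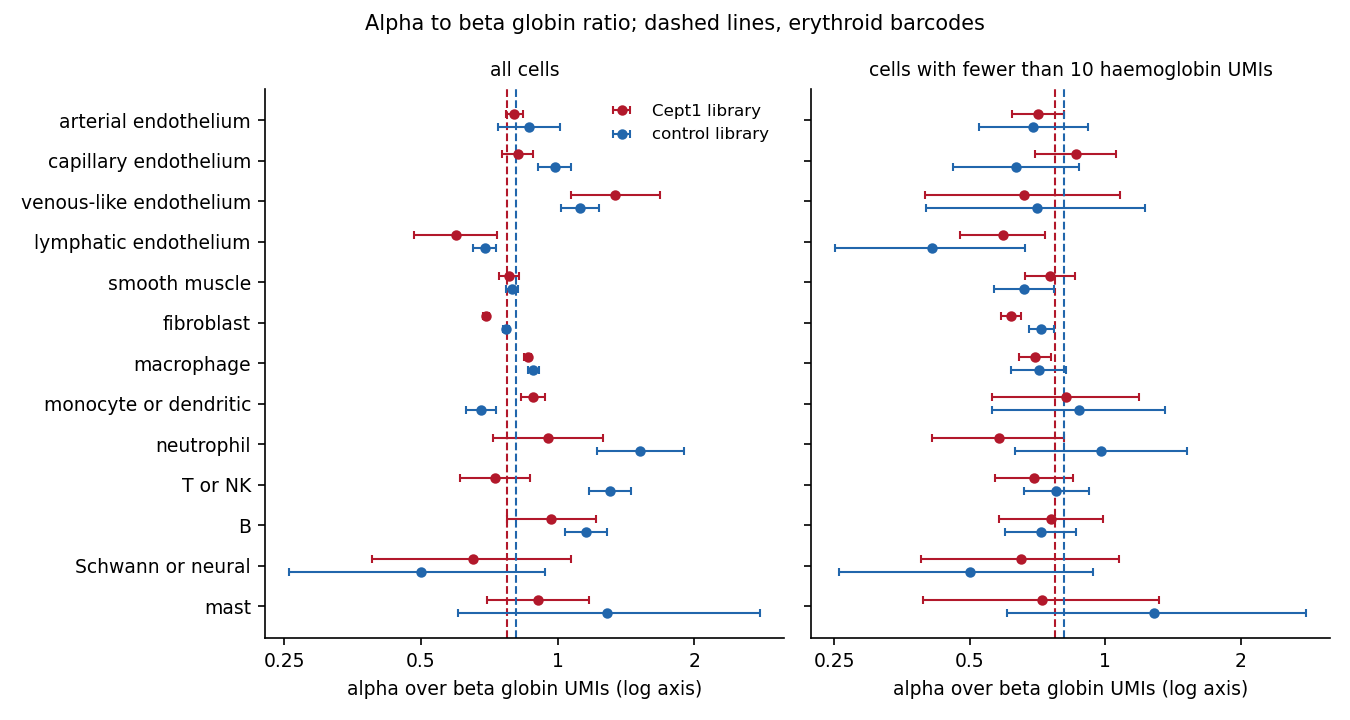
Alpha over beta globin UMIs (log axis) by class with 95% intervals, for all cells (left) and for cells with fewer than 10 haemoglobin UMIs (right); dashed lines are the erythroid barcodes of each library. The right panel has no class whose interval lies above its dashed line.

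The endothelial cells with 20 or more haemoglobin UMIs carried both chains. Of the 17 such cells in the Cept1 library, the lowest alpha to beta ratio was 0.346, the median 0.971 and the highest 5.15; among the 15 in the control library these were 0.529, 0.731 and 2.58. The arterial cell with most held 1970 haemoglobin UMIs out of 12618, as 466 of Hba-a1, 347 of Hba-a2, 936 of Hbb-bs and 221 of Hbb-bt, with 3 of Alas2. The lymphatic cell of the control library held 1070, 777, 2298 and 377 of the 4 genes out of 33980 UMIs, with 1 of Alas2. The arterial cell at the other end had 34 of Hba-a1, 33 of Hba-a2, 13 of Hbb-bs and none of Hbb-bt. An Alas2 UMI was present in 7 of 17 and 4 of 15 of these cells. The 1395 and 627 endothelial cells with fewer than 10 haemoglobin UMIs held 3 and 3 Alas2 UMIs in all. Per 1000 haemoglobin UMIs that was 1.70 (0.35 to 4.97) and 5.37 (1.11 to 15.7), against 2.05 and 0.94 in all endothelium.

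Cells with many haemoglobin UMIs that came mostly from 1 chain were rare. Among wall cells with 20 or more haemoglobin UMIs, outside the platelet gate, alpha genes made up at least 80% in 7 of 190 and 6 of 462, and beta genes did so in 1 and 8. The alpha-rich cells were in 7 classes and held both alpha genes. A T or NK cell of the control library had 127 UMIs of Hba-a1 and 85 of Hba-a2 beside 12 of Hbb-bs and 3 of Hbb-bt, and a B cell had 13 and 11 with no beta globin UMI. A macrophage of the control library went the other way within the pair, with 3 of Hba-a1 and 42 of Hba-a2. One of the 13 was endothelial, the arterial cell with 34 and 33 described above.

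Barcodes gated as platelets or megakaryocytes held alpha globin almost only from Hba-a1. All 15 had a UMI of the platelet chemokines Ppbp and Pf4. In the Cept1 library the 11 barcodes held 15, 10, 17, 13, 14, 13, 13, 2, 0, 4 and 13 UMIs of Hba-a1, with 4 of Hba-a2, 17 of beta globin and 0 of Alas2 in all. In the control library the 4 barcodes held 11, 19, 9 and 2 UMIs of Hba-a1, with 2 of Hba-a2, 2 of beta globin and 0 of Alas2. Most barcodes thus lay at 9 to 19 UMIs of Hba-a1 in both libraries, at median depths of only 2765 and 2111.5 UMIs. The ratio of Hba-a1 to Hba-a2 was 28.5 (10.8 to 106.4) and 20.5 (5.32 to 175.0), against 1.34 and 1.27 in erythroid barcodes, and alpha exceeded beta by 6.94 (4.16 to 12.3) and 21.5 (5.601 to 183.2).

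The pattern held in the larger set of 296 and 87 platelet-gated barcodes taken before the filter on genes and mitochondrial UMIs. Hba-a1 was found in 82.8% (78.0 to 86.9%) and 83.9% (74.5 to 90.9%) of them, with 1080 and 412 UMIs, beside 104 and 30 of Hba-a2 and 335 and 53 of beta globin. Its level was 3067 and 3468 CPM. As the promoters printed above show, the alpha genes share nearly all of the 150 bases before their starts. The measured 11 and 4 barcodes are part of these 296 and 87, so the sets are not independent.

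Among erythroid barcodes with 200 or more haemoglobin UMIs, the share of Hbb-bt in beta globin was higher in those with more haemoglobin, while the share of Hba-a2 in alpha globin stayed between 40.7% and 44.1%. In erythroid barcodes Hbb-bt made up a median of 1.61% and 2.44% of beta globin from 200 to below 500 haemoglobin UMIs, 3.35% and 3.70% from 500 to below 1000, 9.98% and 8.92% from 1000 to below 2000, 16.0% and 15.6% from 2000 to below 4000, and 19.5% and 20.1% at 4000 or more. The share was higher at each of these steps in both libraries. The 12 and 11 barcodes with fewer than 200 haemoglobin UMIs fell outside this order, with a median Hbb-bt share of 1.76% and 14.5% and a median Hba-a2 share of 52.3% and 40%. Hba-a2 made up 40.7% and 42.7% of alpha globin in the first of these bins and 43.7% and 44.1% in the last. The single barcodes fell around 2 peaks of Hbb-bt share: 201 and 123 barcodes were below 2%, the bin of 8 to 10% between the peaks held 74 and 53, and 155 were at 14 to 16% in the Cept1 library and 96 at 18 to 20% in the control library.

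**Figure D5:**
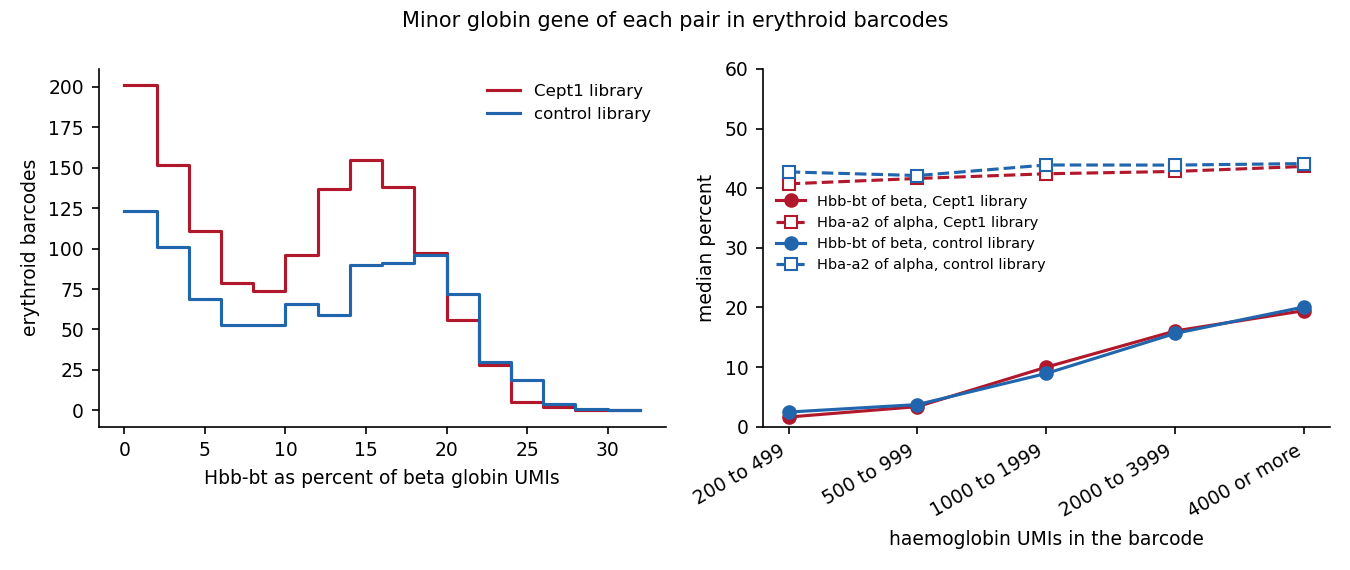
Left, number of erythroid barcodes by Hbb-bt as a percent of beta globin UMIs in bins of 2 points; right, median percent of Hbb-bt in beta globin (circles) and of Hba-a2 in alpha globin (squares) by haemoglobin UMIs of the barcode from 200 UMIs up, for both libraries; the 12 and 11 barcodes below 200 are not drawn on the right. Hbb-bt runs from 1.61% and 2.44% to 19.5% and 20.1%, and Hba-a2 stays between 40.7% and 44.1%.

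Barcodes below 8% Hbb-bt had fewer UMIs of most other red cell genes per haemoglobin UMI. Of 26 such genes, 18 in each library had at least 20 UMIs, and 16 and 18 of these were lower below 8%. The exceptions were Tmcc2 and Ank1 in the Cept1 library. The share of all genes that were lower was not computed, so these counts cannot be set against genes at large and are a description. The barcodes below 8% numbered 543 and 346, with a median of 675 and 802.5 haemoglobin UMIs, against 788 and 581 barcodes with 2279.5 and 2499. Per 1000 haemoglobin UMIs, Bpgm, which sets the 2,3-bisphosphoglycerate level of red cells, was at 0.197 and 0.276 below 8% and at 1.07 and 1.28 above. Slc4a1, the anion exchanger of the red cell membrane, was at 0.0115 and 0.0223 against 0.0902 and 0.145. Alas2 differed less, at 1.30 and 1.69 against 1.66 and 2.20. The median mitochondrial share of UMIs was 13.9% and 7.04% below 8% and 5.28% and 3.15% above; its part in the difference was not tested. The split at 8% was chosen after the distribution was seen.

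In wall cells the ratio of Hbb-bs to Hbb-bt varied by content, and not in the same bins in both libraries. It was 6.70 and 7.27 in cells with 1 haemoglobin UMI, 7.496 and 7.686 from 2 to below 10, 6.63 and 16.6 from 10 to below 20, 17.2 and 7.04 from 20 to below 200, 18.6 (17.5 to 19.8) and 11.4 (10.8 to 12.1) from 200 to below 1000 UMIs, and 5.95 (5.80 to 6.11) and 6.70 (6.50 to 6.90) at 1000 or more. Among endothelial cells with 20 or more UMIs, 11 of 17 and 10 of 15 had less than 8% Hbb-bt. Among the endothelial subtypes, venous-like cells of the control library had the ratio furthest from erythroid barcodes, 39.7 (25.5 to 65.4), from 794 and 20 UMIs. Most of these came from 1 cell with 569 and 16 UMIs and 1 cell with 168 and 1.

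Summed over wall cells, Alas2 stood near the rate to haemoglobin of erythroid barcodes, while single classes varied. In wall cells with 20 or more haemoglobin UMIs it had 1.76 (1.53 to 2.01) and 2.02 (1.77 to 2.29) UMIs per 1000 haemoglobin UMIs, close to the 1.59 and 2.10 of erythroid barcodes; in cells with 1 to 9 it had 1.49 (0.88 to 2.35) and 1.49 (0.74 to 2.67). By class, endothelium had 2.05 (1.30 to 3.08) and 0.94 (0.43 to 1.79) per 1000, the latter below the erythroid 2.10 (2.04 to 2.17) of its library. B cells of the control library had 6.43 (2.94 to 12.2), above it, from 9 UMIs. Its level was 1.75 and 0.31 CPM in arterial endothelium, from 12 and 1 UMIs, and 5.68 and 3.00 CPM in macrophages, from 85 and 26. The 3579 and 3394 wall cells without a haemoglobin UMI held 8 and 10 Alas2 UMIs in all, or 0.377 and 0.389 CPM. Cells with 1 to 9 haemoglobin UMIs were no higher, at 0.363 and 0.266 CPM. The rate of 1.49 in those cells therefore does not show that Alas2 follows haemoglobin there. In venous-like endothelium no Alas2 UMI was counted in either library, which allows up to 5.24 and 4.61 CPM (3 counts).

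Slc4a1 was too sparse to separate wall cells. It had 4 and 12 UMIs in all wall cells with 20 or more haemoglobin UMIs. Per 1000 haemoglobin UMIs this was 0.0329 (0.00896 to 0.0842) and 0.0996 (0.0515 to 0.174), beside 0.0751 and 0.121 in erythroid barcodes. Late red cell genes such as Bpgm were common in wall cells without haemoglobin, with 553 and 533 UMIs, and arterial endothelium held 183.7 and 191.0 CPM of it.

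The other genes of the haem pathway showed no matching shift in arterial endothelium. Of the 11 haem synthesis genes listed, all had at least 20 UMIs there, none had an interval above 0 and 1 had one below, the mitochondrial transporter gene Abcb10 (log2 ratio -0.59, -1.14 to -0.04); over all 12044 genes with 20 UMIs, 9.56% were above and 11.0% below. The median was 0.02, against -0.02 for all genes. Alas1, the form of the first enzyme found outside red cells, was at 21.3 and 20.9 CPM, above Alas2 in UMIs (146 and 67 against 12 and 1), and ferrochelatase, encoded by Fech, was at 37.4 and 37.2 CPM. Among other globins 1 of 9 was measured, Cygb, which encodes cytoglobin, at 6.27 and 3.75 CPM (0.74, -0.21 to 1.80). Of the erythroid regulators 3 of 8 were measured and none had an interval off 0: Tal1, which is also made by endothelium, was at 78.9 and 70.3 CPM.

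Partners of alpha globin in the nitric oxide pathway were abundant in arterial endothelium. Nos3, the endothelial nitric oxide synthase, was at 274.3 and 306.0 CPM (-0.16, -0.27 to -0.04) and Cyb5r3 at 237.7 and 257.9 (-0.12, -0.24 to 0.00). All 7 listed partners were measured, 1 had an interval below 0 and none above, with a median of -0.16. Over all genes measured there 9.56% were above and 11.0% below. Of the 12 genes of haem and haemoglobin clearance 9 were measured there: 2 were above 0, Hmox1 (5.98 and 2.50 CPM, 1.26, 0.15 to 2.56) and Blvrb (60.1 and 47.8 CPM), and 3 below, Hmox2, Ftl1 and Fth1.

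Macrophages clear old red cells, and Cd163, the receptor that takes up haemoglobin bound to haptoglobin, is 1 of the genes of their gate. Cd163 was at 988.8 and 1017 CPM, and Hmox1, the enzyme that opens the haem ring, at 393.8 and 581.9 CPM (-0.56, -0.62 to -0.51). The iron exporter gene Slc40a1 was at 56.8 and 57.3 CPM. Hp, which encodes the haemoglobin-binding protein haptoglobin, was at 18.3 and 1.84 CPM, from 274 and 16 UMIs (3.31, 2.59 to 4.14). In neutrophils Hp was far higher, at 1230 and 1497 CPM. Whether a few macrophage barcodes held most of its UMIs was not tested. Of the 11 measured clearance genes 2 had an interval above 0 and 4 below, with a median of -0.02; over all 13518 genes 13.8% were above and 12.7% below, with a median of 0.01. Haemoglobin itself had a log2 ratio of 0.44 (0.42 to 0.47) in macrophages, and -0.02 without the 1% of cells with the largest haemoglobin share.

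In erythroid barcodes, 9 of 11 measured late red cell genes and 3 of 8 measured red cell membrane genes had an interval below 0, and none above, with medians of -0.31 and -0.55. Over all 7822 genes there, 5.25% were below and 17.4% above 0, and the median was 0.23. Haemoglobin was at 708214 and 756667 CPM in these barcodes, and the macrophage gene Cd163 was at 52.5 and 16.3 CPM in them; their part in these values was not tested.

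Over 12 classes in both libraries (24 points), the genes most like summed haemoglobin by Pearson r of log2(CPM + 1) were Fkbp1b (0.80), Alas2 (0.75), Tubb6 (0.74), Zfp385a (0.72), Slc22a18 (0.69) and Camta2 (0.68), among 14153 genes. Alas2 was thus the second, from 487 UMIs in all. The points share libraries and differ in depth, and the level of haemoglobin in each rests on a few cells, so r is a description.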

How the data were processed

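Single cells of whole aorta were profiled with a 10x 3′ kit in 1 library per group. The deposited matrices hold raw UMI counts per gene and barcode, which per the file headers the authors produced using Cell Ranger 7.2.0. Seurat and mm10 are named too, per the submitters' processing notes. Neither the pooling of the mice nor the sorting gate is given in the sources that were used. The members, gene lists and comparisons were chosen with earlier results of these data known.

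From the counts, barcodes were kept that had 500 or more genes and a mitochondrial share of up to 10% (11168 of the Cept1 and 8729 of the control library). Scrublet (scanpy 1.11.5, expected rate 8%) set a threshold of 0.2372 in the Cept1 library. Its own threshold for the control library called 0 barcodes and was not used, so 0.2372 served for both and removed 533 (4.77%) and 183 (2.10%). A cell joined the class with the highest mean log-scaled marker level if at least 3 of its markers were detected and the score was at least 1.5 times the next; 348 and 491 kept cells passed no gate. Endothelial cells went to the subtype with most detected markers, at least 3. These numbers were set from marker detection and class sizes, before haemoglobin was read by class. Barcodes with at least 20% haemoglobin UMIs were called erythroid, from all deposited barcodes, and left out of the wall classes.

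Levels carry exact Poisson intervals, and shares and ratios exact Clopper-Pearson intervals (95%, counting error only; UMIs of a cell are not independent, so the spread between cells is wider). A count of 0 was given the limit that 3 counts allow. With 1 library per group there is no test and no p-value. Genes were named if they were members or, from fixed lists, had at least 10 UMIs in a class; counts over lists use genes with at least 20 UMIs in both libraries together, and the 2-fold background uses at least 50. Ahsp, listed as the alpha haemoglobin partner, was not among the features used. Promoters came from RefSeq on GRCm38.p6. The ratio calculation was tested on simulated data. Alternatives were another cell filter, gate, doublet handling, weighting, thinning and removal of the cells with most haemoglobin. Chosen after seeing the data were keeping erythroid barcodes in their class, the limit of 10 haemoglobin UMIs, a score ratio of 2 and leaving out barcodes found in both libraries. Versions were scipy 1.17.1, numpy 2.4.6, pandas 2.3.3 and Python 3.11.15.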

Additional observations from a re-analysis of the deposited data

Results flagged for a closer look

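The library ratio of haemoglobin differed in direction between endothelial subtypes under the same contrast. It was 2.51 on the log2 scale in arterial cells, against -2.20 in venous-like cells and -4.61 in lymphatic cells. With 1 library per group the difference between subtypes was not tested. In arterial cells 12 of 785 (Cept1 library) and 3 of 240 (control library) cells held 87.1% and 61.7% of the UMIs, and in lymphatic cells of the control library 1 cell held 4522 of 4993.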

How the results depend on the processing

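No paired analysis was possible because each group is 1 library. Arterial endothelium kept a log2 ratio above 0 under every alternative run, from 0.11 to 3.36. So did monocytes or dendritic cells (0.45 to 4.30) and Schwann or neural cells (0.66 to 1.97). Endothelium as a whole, at -0.55 in the main run, ranged from -1.76 to 0.86. Capillary cells, at 0.04 in the main run, ranged from -3.15 to 1.15. The cause was not tested for any value below. Under a stricter filter (1000 genes or more, mitochondrial share up to 5%) the log2 ratio was -1.76 in endothelium and 1.78 in arterial cells. It was -3.15 in capillary cells and 0.48 in fibroblasts, and the endothelial alpha to beta ratio of the Cept1 library was 0.750. With every deposited barcode that passes the gate it was -1.20 in endothelium and 2.28 in arterial cells, and alpha to beta in the control library was 0.748. With 1 more marker B cells were at 0.12. With doublets kept the log2 ratio was 0.57 in endothelium, 3.36 in arterial cells, 0.28 in venous-like cells and 0.32 in smooth muscle, and alpha to beta in the Cept1 library was 0.705. Without cells that had a UMI of Alas2 or a red cell membrane gene it was -0.84 in endothelium, 0.56 in arterial cells, 0.46 in lymphatic cells, 0.081 in smooth muscle, -0.34 in macrophages and 0.14 in B cells, and endothelial alpha to beta was 0.909 and 0.948. Without the top 1% of cells it was 1.48 in arterial cells, 0.38 in lymphatic cells, -0.020 in macrophages, 0.50 in neutrophils and 0.69 in B cells, and alpha to beta in the Cept1 library was 0.689. With erythroid barcodes kept in their class it was 0.089 in endothelium, 0.11 in arterial cells, 2.27 in venous-like cells, 0.048 in fibroblasts and 0.11 in B cells, and alpha to beta was 0.768 and 0.743. Among cells with fewer than 10 haemoglobin UMIs it was 0.86 in endothelium, 0.97 in arterial, 0.53 in venous-like and 0.93 in lymphatic cells, 0.72 in smooth muscle, 0.56 in fibroblasts, 1.16 in neutrophils and 0.76 in B cells, and alpha to beta was 0.710 and 0.620. A marker score 2 times the next gave -0.39 in endothelium. Weighting cells equally gave -0.65 in endothelium, 1.72 in arterial cells and 0.74 in B cells; UMIs per cell gave -0.91 in endothelium and 1.90 in arterial cells; thinning to 2000 UMIs gave -0.29, 1.78 and 0.72 in the same 3. Calling barcodes erythroid by at least 3 other erythroid genes gave 4221 and 3487 barcodes in place of 1331 and 927. That rule sets no haemoglobin share, and late red cell genes such as Bpgm were common in wall cells without haemoglobin. A lymphatic cell of the control library with 27 haemoglobin UMIs out of 50422 had 3 such other genes. The larger counts are therefore not read as counts of red cells.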
